A study of Homo sapiens with 16 samples.

Results

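Total RNA libraries made after ribosomal RNA depletion capture RNAs that have no poly(A) tail, among them the abundant structured RNAs that form the core of RNA-protein machines. The genes described here were listed by symbol: RN7SL1, RN7SL2, RN7SK, RMRP, RPPH1, TERC, MALAT1 and NEAT1. They were listed because their measured levels differed across the libraries, so those levels are given as a description, with no p-value. Of the 8 listed genes, 6 could be paired with a row among the 57820 rows of the count table, which are named by Ensembl gene identifiers. RN7SL1 and RMRP could not be paired with a row by the gene tables used here and are not described by name. Rows without a symbol may hold them. All 6 paired genes passed the filter on low counts in each comparison.

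The cells were Jurkat and HSB-2, 2 established lines of T-ALL (T-lineage acute lymphoblastic leukemia), both labelled TAL1+. The groups of each line were wild-type cells, cells carrying a scrambled shRNA as control, and cells with either of 2 shRNAs against the deubiquitylase gene USP7, shRNA-4057 and shRNA-4058. Each of the 8 groups had 2 libraries. The study delivered shRNAs by lentivirus and selected the transduced cells by GFP sorting or puromycin, so a scrambled or USP7 shRNA group is a selected population of 1 line. Whether replicates were separate cultures is not stated, so the errors below measure the spread between these libraries, which may be technical. Levels are in CPM, counts per 1 M, or mega, of library counts after TMM scaling. That scaling sets libraries to a common level over most genes. USP7 was at 385 ± 2.21 CPM (SD, n = 2) in Jurkat scrambled cells, 143 ± 3.79 with shRNA-4057 and 243 ± 1.46 with shRNA-4058. In HSB-2 it was at 224 ± 5.02, 146 ± 3.68 and 159 ± 3.95 CPM in the same order. Total counts lay between 76.6 and 235 M per library. The T-lineage marker CD3E lay between 445 and 629 CPM in Jurkat and between 291 and 457 CPM in HSB-2. CD2, another T-lineage marker, was at most 4.96 CPM in HSB-2. The B-lineage marker CD79A reached 64.3 CPM in Jurkat and 1.57 CPM in HSB-2.

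RN7SL2 encodes 7SL RNA, the scaffold of the signal recognition particle, which brings ribosomes that make secreted and membrane proteins to the endoplasmic reticulum. RN7SK encodes 7SK RNA, which holds the elongation kinase P-TEFb in an inactive particle. RPPH1 is the catalytic RNA of RNase P, which trims the 5′ end of precursor tRNAs, and TERC is the template RNA of telomerase. 7SL, 7SK and RPPH1 RNAs are made by RNA polymerase III, whereas human TERC is made by RNA polymerase II. MALAT1 and NEAT1 are long RNAs of the nucleus made by RNA polymerase II: MALAT1 lies in nuclear speckles, and NEAT1 is the scaffold of paraspeckles.

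The positions given here are those of GRCh37. RN7SL2 (ENSG00000265150.1) is the 297-base row at chr14:50329271-50329567 on the minus strand. The neighbouring copy RN7SL3 lies on the same strand of the same chromosome. The copies share 286 of 297 bases (96.3%), and their reads can be told apart only at the 11 bases that differ.

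RN7SK (ENSG00000202198.1) is the 331-base row at chr6:52860418-52860748 on the plus strand. Its first 300 bases are shown, since many shortened copies of it lie in the genome and a read inside it may match some of them.
RN7SK: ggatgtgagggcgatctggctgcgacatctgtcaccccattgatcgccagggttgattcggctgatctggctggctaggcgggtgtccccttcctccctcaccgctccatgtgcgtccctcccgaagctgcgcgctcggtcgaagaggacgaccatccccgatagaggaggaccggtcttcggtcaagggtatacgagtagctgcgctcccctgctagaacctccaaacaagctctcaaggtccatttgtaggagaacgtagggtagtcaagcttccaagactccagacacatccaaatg

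RPPH1 was measured by a longer row (ENSG00000259001.2, 638 bases) at chr14:20811207-20811844 on the minus strand. The row holds the 341-base RPPH1 RNA of RefSeq, and the first bases of the row overlap PARP2 on the other strand. The RNA fills bases 275 to 615 of the row. The stretch from base 235 to base 534 is shown to mark where the RNA starts in it, with the RNA in capitals.
RPPH1: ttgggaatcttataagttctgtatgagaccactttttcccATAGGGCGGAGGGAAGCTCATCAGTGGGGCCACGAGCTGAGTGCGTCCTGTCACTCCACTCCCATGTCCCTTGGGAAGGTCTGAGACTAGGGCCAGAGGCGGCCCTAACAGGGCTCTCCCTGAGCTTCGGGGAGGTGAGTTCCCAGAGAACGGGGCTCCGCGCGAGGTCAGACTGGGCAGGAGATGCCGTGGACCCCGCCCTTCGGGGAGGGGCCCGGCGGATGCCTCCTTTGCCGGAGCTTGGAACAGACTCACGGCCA

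TERC (ENSG00000270141.2) is the 541-base row at chr3:169482308-169482848 on the minus strand. The first 100 bases of the row are shown because they hold the template from which telomerase copies the telomere repeat, in capitals.
TERC: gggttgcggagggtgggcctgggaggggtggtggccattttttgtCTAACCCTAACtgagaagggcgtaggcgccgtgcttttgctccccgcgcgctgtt
The nuclear RNAs are much longer. MALAT1 (ENSG00000251562.3, 10434 bases) lies at chr11:65265111-65275544 on the plus strand and has an antisense partner, TALAM1. NEAT1 (ENSG00000245532.4, 22767 bases) lies at chr11:65190245-65213011 on the same strand.

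The 6 RNAs took between 3.78% and 8.85% of all counts of a library. RN7SL2 ranked 2 among all rows by its mean share (2.36%, from 1.36% to 4.84%). RN7SK ranked 3 (1.58%, from 1.12% to 2.26%), RPPH1 ranked 5 (0.662%, from 0.374% to 1.52%) and MALAT1 ranked 9 (0.399%, from 0.202% to 0.551%). NEAT1 and TERC were rarer, at ranks 369 and 4461. NEAT1 took a mean of 0.0362% and TERC 0.0051%, which was still at least 2570 counts in each library. The largest totals of the 6 RNAs were in the Jurkat scrambled libraries, 7.43% and 8.85%, and the smallest was in an HSB-2 scrambled library, 3.78%. A pair of rows for which the tables used here hold no symbol had the highest counts among such rows and are described by their identifiers alone, having been chosen after their values were seen. ENSG00000258486.2 had the largest mean share of all rows (2.73%), and ENSG00000269900.2 ranked 27 (0.167%). Together with the 6 RNAs, these rows took between 5.75% and 14.2% of the counts of a library.

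**Figure D1:**
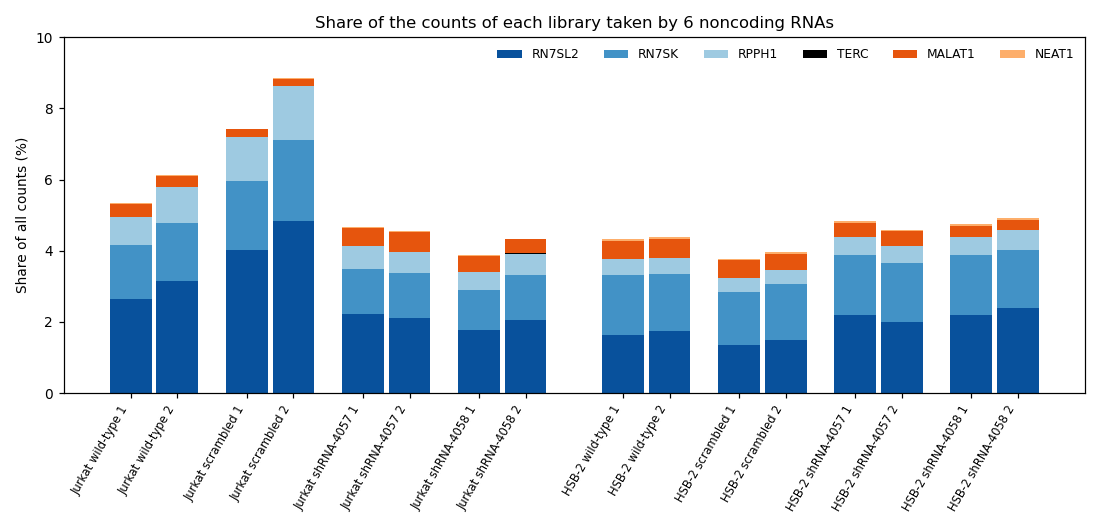
Stacked bars give the share of all counts (%, linear axis from 0) taken by the 6 noncoding RNAs in each of the 16 libraries, and TERC and NEAT1 are too rare to be seen at this scale. The Jurkat scrambled libraries reach 7.43% and 8.85%, and the other libraries lie between 3.78% and 6.14%.

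Levels of different genes were compared per length of annotated sequence, as CPM per kb (kilobase). The lengths are those of the whole rows, such as 638 bases for the 341-base RPPH1 RNA and 22767 bases for NEAT1. The levels and their order depend on these lengths. In Jurkat wild-type cells the order was RN7SL2 (93169 ± 12538 CPM per kb, SD, n = 2), RN7SK (45142 ± 3523), RPPH1 (13473 ± 2492), MALAT1 (309 ± 11.3), TERC (144 ± 5.43) and NEAT1 (10.2 ± 0.047). HSB-2 wild-type cells had the same order, with RN7SL2 at 59003 ± 2918, RN7SK at 51746 ± 1222, RPPH1 at 7331 ± 107, MALAT1 at 494 ± 21.6, TERC at 49.8 ± 0.25 and NEAT1 at 28.4 ± 0.527 CPM per kb. In HSB-2 scrambled cells RN7SL2 (48249 ± 3728 CPM per kb) and RN7SK (46223 ± 1760) did not differ beyond their spread. In Jurkat scrambled cells TERC (231 ± 0.746 CPM per kb) was above MALAT1 (216 ± 9.31), the only group in which their means stood in that order.

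The comparisons below, like the CPM values above, use TMM scaling, which sets libraries to a common level over most genes. In bulk RNA, a change in the number of cells that hold an RNA and a change of its amount per cell cannot be told apart. Both USP7 shRNAs of a line, and the comparison of scrambled with wild-type cells, rest on the same 2 scrambled libraries. Differences are log2 values from edgeR fits of all genes. Their standard error (SE) was taken as the absolute difference over the square root of the F statistic of its test. In the fit of 16 libraries, 1 estimate of spread per gene serves all 8 groups. The SE there does not follow the replicate spread of a single group. In the pooled comparison of a line, the libraries of both USP7 shRNAs were set against the scrambled libraries. The 4 shRNA libraries lay on 1 side of both scrambled libraries for 6 RNAs in Jurkat and for 5 in HSB-2, beside 53.9% and 57.4% of all genes. The RNAs were chosen on these levels, so the counts are given as a description.

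The signal recognition particle RNA was lower with USP7 shRNA than with the scrambled control in Jurkat and higher in HSB-2. In Jurkat, RN7SL2 was at 42136 and 52357 CPM in scrambled cells, at 19587 and 18417 with shRNA-4057, and at 15427 and 18185 with shRNA-4058. Wild-type Jurkat cells, at 25038 and 30304 CPM, lay between these groups without overlap. The difference from scrambled was -1.31 ± 0.09 (log2 ± SE) for shRNA-4057 and -1.49 ± 0.09 for shRNA-4058, and from wild-type -0.54 ± 0.09 and -0.72 ± 0.09. In HSB-2 the scrambled libraries were the lowest, at 13547 and 15113 CPM. HSB-2 wild-type cells had 16911 and 18137 CPM, cells with shRNA-4057 24152 and 21488, and cells with shRNA-4058 24436 and 27128. All 4 HSB-2 shRNA libraries exceeded the scrambled and the wild-type libraries. The difference from scrambled was 0.67 ± 0.09 for shRNA-4057 and 0.85 ± 0.09 for shRNA-4058, and from wild-type 0.38 ± 0.09 and 0.56 ± 0.09.

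RN7SL3, the near-identical copy, was far below RN7SL2, and its level is uncertain because reads may be divided between the copies. It fell with USP7 shRNA in Jurkat (log2 difference -1.83 ± 0.23, edgeR adjusted p = 0.00149) and rose in HSB-2 (0.77 ± 0.19, adjusted p = 0.0115). With wild-type controls the Jurkat call held and the HSB-2 call did not (0.62, adjusted p = 0.0902). It was at 187 ± 57.2 CPM in Jurkat scrambled cells and 45.8 ± 1.04 in HSB-2 scrambled cells (SD, n = 2). The rows whose symbol marks them as copies of 7SL, leaving out RN7SL2, were 846 in number with 589 detected. They took between 0.0133% and 0.0355% of the counts. A copy whose row has no symbol is not among them. The row without a symbol, ENSG00000258486.2, differed between groups as RN7SL2 did, with -1.43 ± 0.09 in Jurkat and 0.71 ± 0.10 in HSB-2 in the pooled comparison.

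7SK RNA differed in the same directions by smaller amounts. RN7SK was at 20379 and 24471 CPM in Jurkat scrambled cells and at 14118 and 15767 in Jurkat wild-type cells. It was at 11404 and 11201 CPM with shRNA-4057 and at 9666 and 11236 with shRNA-4058. The 4 groups did not overlap, apart from the 2 shRNA groups with each other. Against scrambled cells the log2 difference was -0.99 ± 0.06 and -1.10 ± 0.06 for the 2 shRNAs, and from wild-type -0.40 ± 0.06 and -0.52 ± 0.06. In HSB-2, RN7SK stayed within a narrow range, from 14888 and 15712 CPM in scrambled cells and 17414 and 16842 in wild-type cells to 18248 and 17959 with shRNA-4057 and 18569 and 18419 with shRNA-4058. Relative to scrambled cells, the log2 difference was 0.24 ± 0.06 and 0.27 ± 0.06. From wild-type it was 0.08 ± 0.06 and 0.11 ± 0.06. The 291 rows of 7SK copies took 0.0090% to 0.0261% of the counts.

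Of the 6 RNAs, the RNase P RNA differed most from scrambled cells in the pooled Jurkat comparison, a rank that rests on scrambled replicate 2. Without that library RPPH1 was at -1.33, whereas TERC lay between -1.46 and -1.43 whichever library was left out. With wild-type controls TERC was at -0.76 and RPPH1 at -0.74. RPPH1 was at 12907 and 16413 CPM in Jurkat scrambled cells, at 7472 and 9720 in wild-type cells, at 5515 and 5148 with shRNA-4057 and at 4271 and 5199 with shRNA-4058. The lower scrambled library stood above the higher wild-type library, and both wild-type libraries above the 4 shRNA libraries. The shRNA effect on RPPH1 against scrambled cells was -1.46 ± 0.10 and -1.63 ± 0.10, and from wild-type -0.69 ± 0.10 and -0.86 ± 0.10. In HSB-2, RPPH1 was at 3736 and 4021 CPM in scrambled, 4629 and 4726 in wild-type, 5623 and 5183 in shRNA-4057 and 5856 and 6341 in shRNA-4058 cells. No group overlapped another there. For RPPH1 in HSB-2, the log2 difference from scrambled was 0.48 ± 0.10 and 0.65 ± 0.10, and from wild-type 0.21 ± 0.10 and 0.38 ± 0.10.

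Telomerase RNA was the rarest of the 4 structured RNAs and had the widest range of the 6 RNAs across libraries, 7.85-fold. TERC was at 124.8 and 125.4 CPM in Jurkat scrambled cells, at 75.9 and 80.0 in wild-type cells, at 46.2 and 44.4 with shRNA-4057 and at 43.4 and 46.1 with shRNA-4058. The shRNA groups overlapped each other and no other group. For TERC, the log2 difference from scrambled was -1.47 ± 0.06 for shRNA-4057 and -1.48 ± 0.06 for shRNA-4058, and from wild-type -0.78 ± 0.06 and -0.80 ± 0.06. In HSB-2, TERC was at 15.98 and 16.44 CPM in scrambled cells, below the 26.8 and 27.0 of wild-type cells. It reached 32.6 and 28.5 CPM with shRNA-4057 and 38.4 and 43.7 with shRNA-4058. In HSB-2 the TERC difference from scrambled was 0.91 ± 0.06 and 1.33 ± 0.06, and from wild-type 0.18 ± 0.06 and 0.60 ± 0.06.

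MALAT1 went the other way in Jurkat. It was lowest in scrambled cells, at 2324 and 2186 CPM, against 3307 and 3140 in wild-type, 4497 and 4835 in shRNA-4057 and 3898 and 3503 in shRNA-4058 cells. No Jurkat group overlapped another. The log2 difference from scrambled was 1.05 ± 0.05 for shRNA-4057 and 0.71 ± 0.05 for shRNA-4058, and from wild-type 0.53 ± 0.05 and 0.20 ± 0.05. In HSB-2, MALAT1 was at 5078 and 4708 CPM in scrambled and 4994 and 5313 in wild-type cells, which overlapped. It was lower with shRNA-4057, at 4350 and 4552 CPM, and with shRNA-4058, at 3388 and 3373. The log2 difference from scrambled was -0.14 ± 0.05 and -0.53 ± 0.05. In the pooled comparison, whose error includes the difference between the shRNAs, it was -0.32 ± 0.13.

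NEAT1 followed MALAT1 in Jurkat with smaller differences and showed little difference from scrambled cells in HSB-2. In Jurkat it was at 172.4 and 171.5 CPM in scrambled, 232.5 and 230.9 in wild-type, 273 and 277 in shRNA-4057 and 211 and 197 in shRNA-4058 cells. The log2 difference from scrambled was 0.68 ± 0.03 and 0.25 ± 0.03. From wild-type it was 0.25 ± 0.03 for shRNA-4057 and -0.18 ± 0.03 for shRNA-4058, so the direction for shRNA-4058 depended on the control. In HSB-2 it was at 466 and 450 CPM in scrambled, 495 and 493 in shRNA-4057 and 461 and 471 in shRNA-4058 cells. Wild-type HSB-2 cells stood apart at 637 and 654 CPM. The pooled log2 difference from scrambled was 0.07 ± 0.05 in HSB-2, the shRNA libraries overlapped the scrambled ones, and its sign turned under 3 other settings. Scaling by raw library totals gave -0.07.

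**Figure D2:**
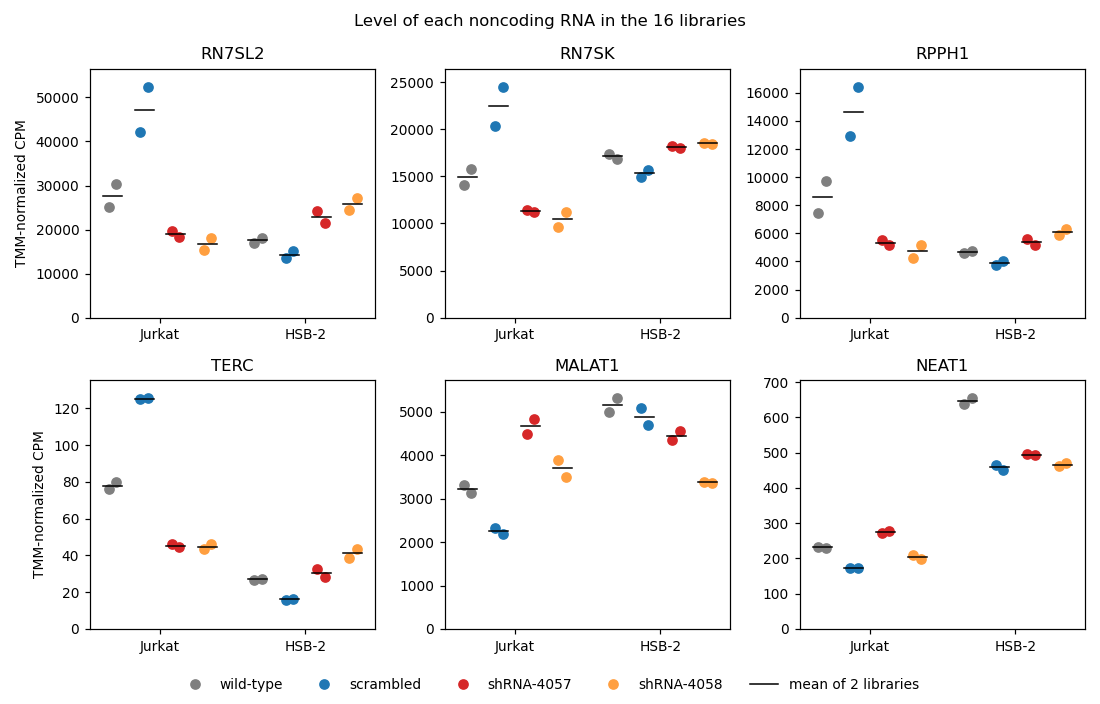
Each point is 1 library and each short line the mean of the 2 libraries of a group, on linear axes of TMM-normalized CPM that start at 0, with a panel for each RNA. RN7SL2, RN7SK, RPPH1 and TERC are highest in Jurkat scrambled cells, where RN7SL2 reaches 52357 CPM, and lowest in HSB-2 scrambled cells except for RN7SK, whose lowest levels are in Jurkat shRNA cells.

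The scrambled control therefore stood apart from wild-type cells in both lines, in opposite directions for the structured RNAs. In Jurkat, scrambled minus wild-type was 0.77 ± 0.09 (log2 ± SE) for RN7SL2, 0.59 ± 0.06 for RN7SK, 0.77 ± 0.10 for RPPH1 and 0.68 ± 0.06 for TERC. It was -0.52 ± 0.05 for MALAT1 and -0.43 ± 0.03 for NEAT1. The groups did not overlap for 6 of 6 RNAs, beside 58.4% of all genes. In HSB-2, scrambled minus wild-type was -0.29 ± 0.09 for RN7SL2, -0.16 ± 0.06 for RN7SK, -0.27 ± 0.10 for RPPH1, -0.73 ± 0.06 for TERC, -0.07 ± 0.05 for MALAT1 and -0.49 ± 0.03 for NEAT1. There the groups did not overlap for 5 of 6, beside 64.7% of all genes. Set against wild-type cells, the shRNA groups kept the sign of each structured RNA in both lines, and these differences were smaller than those from scrambled cells in both lines. With wild-type cells as the control of the pooled comparison, the Jurkat difference was -0.60 for RN7SL2, -0.43 for RN7SK, -0.74 for RPPH1 and -0.76 for TERC. In HSB-2 it was 0.47 for RN7SL2, 0.09 for RN7SK, 0.29 for RPPH1 and 0.40 for TERC, whereas MALAT1 was at -0.40 and NEAT1 at -0.43. The difference between the lines in the shRNA effect, HSB-2 minus Jurkat with scrambled controls, was 2.17 ± 0.15 for RN7SL2, 1.31 ± 0.11 for RN7SK, 2.12 ± 0.16 for RPPH1 and 2.62 ± 0.18 for TERC. It was -1.21 ± 0.19 for MALAT1 and -0.41 ± 0.16 for NEAT1. The same interaction term was called in edgeR for 50 of 99 partner genes and other structured RNAs, described below, beside 37.7% of all genes tested.

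**Figure D3:**
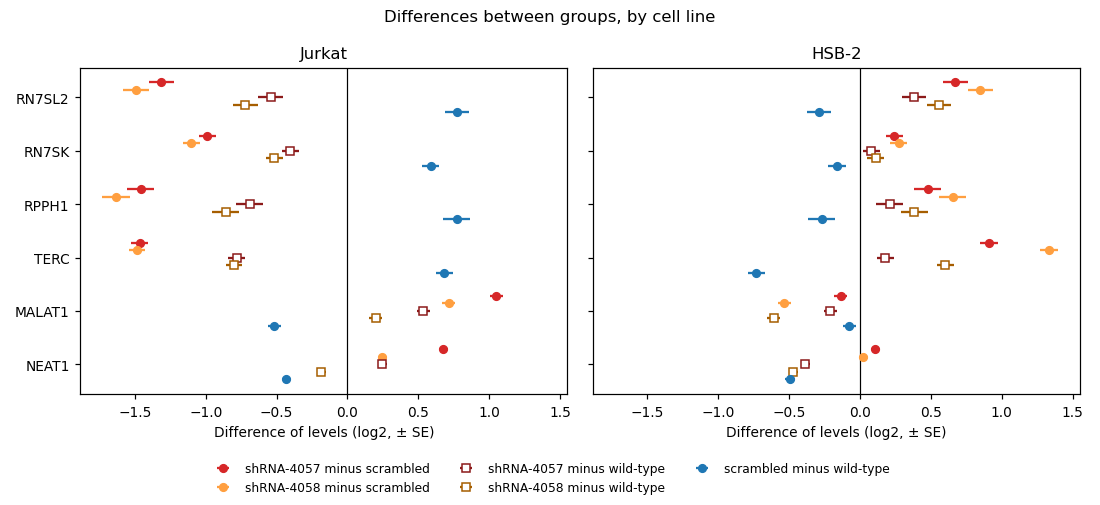
Points give log2 differences of levels and bars their SE from the fit of 16 libraries, with Jurkat on the left, HSB-2 on the right, filled symbols for comparisons with scrambled cells as 1 side and open squares for shRNA against wild-type cells. The structured RNAs lie left of 0 for shRNA in Jurkat and right of 0 in HSB-2, from -1.63 to 1.33, with the wild-type comparisons nearer to 0.

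Wild-type cells of the lines also differed. HSB-2 minus Jurkat was -0.66 ± 0.09 for RN7SL2, -0.88 ± 0.10 for RPPH1 and -1.53 ± 0.06 for TERC, while RN7SK was 0.20 ± 0.06, MALAT1 0.68 ± 0.05 and NEAT1 1.48 ± 0.03. The groups did not overlap for 6 of 6 RNAs, beside 83.4% of all genes.

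Ratios of counts within a library do not depend on scaling. RN7SL2 against RPPH1 ranged from 3.12 in a Jurkat wild-type library to 4.29 in an HSB-2 shRNA-4057 library. In Jurkat it was 3.26 and 3.19 in scrambled cells and 3.55 and 3.58 with shRNA-4057. RN7SL2 against RN7SK was 2.07 and 2.14 in Jurkat scrambled cells, 1.72 and 1.64 with shRNA-4057 and 1.60 and 1.62 with shRNA-4058, so the structured RNAs differed by unequal amounts. In HSB-2 that ratio was 0.91 and 0.962 in scrambled cells, 1.32 and 1.20 with shRNA-4057 and 1.32 and 1.47 with shRNA-4058. RN7SK against MALAT1 was 8.77 and 11.2 in Jurkat scrambled cells and 2.54 and 2.32 with shRNA-4057. NEAT1 was between 5.40% and 7.84% of MALAT1 in Jurkat and between 9.18% and 13.9% in HSB-2, without overlap of the lines.

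Replicates of RN7SL2, RN7SK and RPPH1 differed most in 3 Jurkat groups, whereas those of TERC differed most in HSB-2 shRNA cells. RPPH1 differed by 0.38 (log2 of replicate 2 over replicate 1) in wild-type, 0.35 in scrambled and 0.28 in shRNA-4058 cells, where the counting error was at most 0.0027. RN7SL2 differed by 0.28, 0.31 and 0.24 in the same groups, and RN7SK by 0.16, 0.26 and 0.22. Only 0.861%, 1.17% and 1.44% of the 9867 genes whose mean level was 10 CPM or more had larger replicate differences than RPPH1 in these groups. Replicates of HSB-2 also differed beyond counting error, with RN7SL2 at 0.16 in scrambled, -0.17 in shRNA-4057 and 0.15 in shRNA-4058 cells, and TERC at -0.19 in shRNA-4057 cells against a counting error of 0.0381. In HSB-2 shRNA-4058 cells TERC was at 38.4 and 43.7 CPM, a difference of 0.19. TERC differed by 0.01 between the Jurkat scrambled replicates, within its counting error of 0.0189. MALAT1 went the opposite way to the polymerase III RNAs, with -0.07, -0.09 and -0.15. The median absolute replicate difference of the 6 RNAs was 0.18 in Jurkat scrambled cells against 0.05 for those genes, and 0.04 against 0.04 in HSB-2 wild-type cells. The row ENSG00000269900.2 had the widest replicate differences, 0.72 in Jurkat wild-type, 0.74 in scrambled and 0.53 in shRNA-4058 cells. Leaving out Jurkat scrambled replicate 2, the higher library, changed the pooled difference of RN7SL2 from -1.38 to -1.21 and that of RPPH1 from -1.52 to -1.33.

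**Figure D4:**
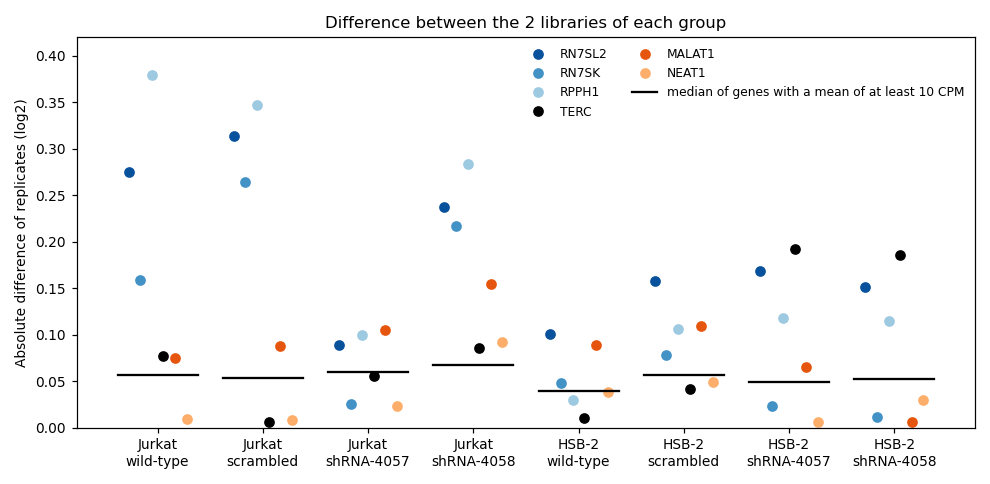
Points give the absolute log2 difference between the 2 libraries of each group for the 6 RNAs, and black lines the median over genes whose mean level was 10 CPM or more. RPPH1, RN7SL2 and RN7SK stand above the line in Jurkat wild-type, scrambled and shRNA-4058 cells, up to 0.38 against medians of 0.05 to 0.07.

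Transcript length and GC content moved with the same comparisons over genes with a mean of 10 CPM or more and an annotated transcript. In the pooled Jurkat comparison these were 9680 genes, of 21288 tested. RN7SL2, RN7SK, RPPH1 and TERC are short, with 297 to 638 bases in their rows, and have 58.0% to 66.7% GC. In the pooled Jurkat comparison the median log2 difference was -0.24 over the genes in the lowest of 4 equal classes of transcript length and 0.08 over those in the highest. For Jurkat scrambled minus wild-type the same medians were 0.16 and -0.06, and in the pooled HSB-2 comparison 0.09 and -0.05. By GC content, the medians of the lowest and highest of 4 classes were 0.03 and -0.11 in Jurkat and -0.12 and 0.17 in HSB-2. The Jurkat shRNAs differed in this, with 0.05 and -0.22 for shRNA-4058 and -0.06 and -0.07 for shRNA-4057. The part of length and GC content in the differences of the 6 RNAs was not tested.

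The genes whose levels across the 16 libraries were most like each RNA were found by Pearson correlation of log2(CPM + 1) after the mean of each line was subtracted. The points share groups, lines and scaling, so r is a description over 16 libraries that are not independent. For RN7SL2 the nearest of 9867 genes were ENSG00000258486.2 (r = 0.995), COX8A (0.985) and RPPH1 (0.985). For RN7SK they were RPPH1 (0.986), HNRNPL (0.981) and SUMF2 (0.974), and for RPPH1 they were ENSG00000258486.2 (0.99), RN7SK and RN7SL2. TERC was nearest to LCK (0.987), ACTG1 (0.986) and LGALS1 (0.982). MALAT1 was nearest to BTBD9 (0.964), ERC1 (0.963) and SRSF10 (0.963), and NEAT1 to NBPF1 (0.952), SOCS2 (0.95) and EIF4A1 (0.95). MALAT1 and NEAT1 had r = 0.77 with each other.

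Genes of the protein partners of these RNAs were tested in the fits of all genes with edgeR, with p-values adjusted over all genes. Of 112 listed genes, 107 could be paired with a row. Together with the other structured RNAs, 32 of 97 tested were called in the pooled Jurkat comparison (33.0%), 14 higher and 18 lower with USP7 shRNA, with a median log2 difference of -0.01, beside 28.0% of all genes and a median of 0.02. Without the other structured RNAs it was 23 of 82 (28.0%), 13 higher and 10 lower. In HSB-2, 48 of 100 were called (48.0%), 17 higher and 31 lower, with a median of -0.10, beside 38.1% and -0.02 over all genes. Without the other structured RNAs it was 44 of 82 (53.7%), 13 higher and 31 lower. Between scrambled and wild-type cells 35 of 100 were called in Jurkat, beside 25.9% of all genes, and 40 of 100 in HSB-2, beside 34.1%. Between the wild-type lines 75 of 100 were called, beside 68.1%. The pooled counts rest on the control libraries, as do those over all genes. The Jurkat count was 5 without scrambled replicate 2, where 6.38% of all genes were called, 15 without replicate 1 (8.31%) and 9 with wild-type cells as the control (8.41%). The HSB-2 count was 15 without scrambled replicate 1 (18.0%), 21 without replicate 2 (21.3%) and 35 with wild-type controls (25.1%). Values below are log2 differences of USP7 shRNA minus scrambled cells ± SE with edgeR's adjusted p.

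Of the 8 signal recognition particle proteins and receptor subunits, 2 fell in Jurkat, with a median over the list of -0.17. SRPRA, a subunit of the receptor, fell by 0.34 ± 0.05 (adjusted p = 0.00343), and SRP68 fell by 0.23 ± 0.05 (adjusted p = 0.0179). In HSB-2, 7 of 8 were called, 2 higher and 5 lower, with a median of -0.18. SRPRA rose by 0.29 ± 0.05 (adjusted p = 0.00178) and SRP68 by 0.17 (adjusted p = 0.032), whereas SRP19 fell by 0.47 ± 0.11 (adjusted p = 0.0108) and SRPRB fell by 0.38 ± 0.10 (adjusted p = 0.0177). With wild-type controls SRPRA kept its call in HSB-2 (adjusted p = 0.00413) and not in Jurkat (adjusted p = 0.376), and the calls of SRP68 in Jurkat (-0.16, adjusted p = 0.122), SRP19 (-0.33, adjusted p = 0.0704) and SRPRB (-0.29, adjusted p = 0.0806) were lost.

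Of the 7 genes of the 7SK particle and P-TEFb, 1 was called in Jurkat and 6 in HSB-2, with medians of -0.02 and 0.00. HEXIM2, a 7SK-dependent inhibitor of P-TEFb, was at 9.21 ± 0.129 CPM in Jurkat scrambled cells, 8.28 ± 0.187 in wild-type, 5.54 ± 0.234 in shRNA-4057 and 5.86 ± 0.513 in shRNA-4058 cells. It fell in Jurkat by 0.67 ± 0.10 (adjusted p = 0.00357). In HSB-2 it was at 3.46 ± 0.436 CPM in scrambled cells, 3.46 ± 0.00836 in wild-type, 4.83 ± 0.362 in shRNA-4057 and 5.91 ± 0.091 in shRNA-4058 cells, a rise of 0.64 ± 0.15 (adjusted p = 0.00823). Both HEXIM2 calls held with wild-type controls, at -0.51 in Jurkat and 0.63 in HSB-2. CDK9, the kinase of P-TEFb, rose in HSB-2 by 0.64 ± 0.06 (adjusted p = 4.01e-05), and by 0.17 with wild-type controls. HEXIM1 also rose in HSB-2 (0.29, adjusted p = 0.00309), and LARP7, which binds the end of 7SK RNA, fell by 0.25 (adjusted p = 0.0208). The cyclin genes CCNT1 and CCNT2 fell in HSB-2 by 0.31 and 0.36 (adjusted p = 0.00412 and 0.0118), and CCNT2 was at -0.16 with wild-type controls (adjusted p = 0.243), where its call was lost.

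Of the 11 protein subunits of RNase P and of the related RNase MRP, 4 were called in Jurkat, 1 higher and 3 lower, and 3 in HSB-2, all lower, with medians of 0.12 and -0.12. RPP25L fell in Jurkat by 0.62 ± 0.09 (adjusted p = 0.00232). POP1, the largest subunit, rose in Jurkat by 0.49 ± 0.13 (adjusted p = 0.0299) and fell in HSB-2 by 0.45 ± 0.10 (adjusted p = 0.00723), opposite to the RPPH1 differences in each line. RPP40 fell in HSB-2 by 0.63 ± 0.16 (adjusted p = 0.015), and RPP14 fell by 0.30 ± 0.06 (adjusted p = 0.00378). POP5 fell in Jurkat by 0.31 ± 0.08 (adjusted p = 0.0263). With wild-type controls the calls of RPP25L (-0.23, adjusted p = 0.163), POP5 (-0.11, adjusted p = 0.375) and RPP14 (-0.06, adjusted p = 0.495) were lost, and those of POP1 in both lines and of RPP40 held.

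Of the 8 telomerase partners, 3 were called in Jurkat, 1 higher and 2 lower, and 6 in HSB-2, all lower, with medians of -0.03 and -0.30. TERT, the reverse transcriptase, was at 6.63 ± 0.0663 CPM in HSB-2 scrambled cells, 3.12 ± 0.147 in wild-type, 2.20 ± 0.205 in shRNA-4057 and 1.95 ± 0.0605 in shRNA-4058 cells. It fell by 1.67 ± 0.12 (adjusted p = 1.51e-05) from scrambled and by 0.59 with wild-type controls (adjusted p = 0.0151), while TERC was higher in the same comparison. GAR1, a protein of the RNA's box H/ACA domain, rose in Jurkat by 0.58 ± 0.14 (adjusted p = 0.0193) and fell in HSB-2 by 0.48 ± 0.06 (adjusted p = 0.000483). NOP10 fell in Jurkat by 0.34 ± 0.06 (adjusted p = 0.00814), WRAP53 fell in Jurkat by 0.30 ± 0.07 (adjusted p = 0.0171) and NAF1 fell in HSB-2 by 0.43 ± 0.07 (adjusted p = 0.00159). With wild-type controls the calls of NOP10 (-0.02, adjusted p = 0.889), WRAP53 (-0.15, adjusted p = 0.198), NAF1 (-0.10, adjusted p = 0.321) and GAR1 in Jurkat (0.27, adjusted p = 0.26) were lost, and that of GAR1 in HSB-2 held.

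Of the 11 paraspeckle protein genes, 4 were called higher and none lower in the pooled Jurkat comparison, with a median of 0.07. Taken singly against scrambled cells, shRNA-4057 had 5 higher and 4 lower, and shRNA-4058 had 5 higher and 2 lower. Against wild-type cells these counts were 3 and 3 for shRNA-4057, and 6 and 3 for shRNA-4058. Jurkat scrambled minus wild-type had 6 lower and none higher. SFPQ, a core paraspeckle protein, was at 317 ± 3.37 CPM in Jurkat scrambled cells and 455 ± 6.87 in wild-type cells, against 550.3 ± 1.88 with shRNA-4057 and 487 ± 2.57 with shRNA-4058. It rose by 0.73 ± 0.07 (adjusted p = 0.000665), but by 0.22 (adjusted p = 0.104) with wild-type controls, where it was not called. RBM14 rose in Jurkat by 0.33 ± 0.06 (adjusted p = 0.00873). In HSB-2, 4 were called, with NONO 0.21 ± 0.06 higher (adjusted p = 0.0302), TARDBP 0.39 ± 0.08 lower and DAZAP1 0.18 ± 0.05 lower (adjusted p = 0.00444 and 0.0177), and the list median was -0.11. The calls of RBM14, TARDBP and DAZAP1 held with wild-type controls, and that of NONO did not (0.12, adjusted p = 0.185). Of the 9 nuclear speckle protein genes, 2 rose in Jurkat. SON, a scaffold of speckles, rose by 0.23 ± 0.05 (adjusted p = 0.0109) and SRSF1 by 0.25 ± 0.08 (adjusted p = 0.0483). In HSB-2, SRSF5 rose by 0.33 ± 0.05 (adjusted p = 0.000796), SRSF1 fell by 0.26 ± 0.06 (adjusted p = 0.0123) and PNN fell by 0.26 ± 0.06 (adjusted p = 0.00736), among 4 called. The medians of the speckle list were 0.06 and 0.04. With wild-type controls SRSF5 in HSB-2 was at 0.01 (adjusted p = 0.843), and its call and those of SON (0.12, adjusted p = 0.16) and SRSF1 (0.21, adjusted p = 0.142) in Jurkat were lost, while those of SRSF1 and PNN in HSB-2 held.

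Of the 28 genes of RNA polymerase III and its factors, 7 were called in Jurkat, 5 higher and 2 lower, and 14 in HSB-2, 6 higher and 8 lower, with medians of -0.01 and -0.11. POLR3B, the second largest subunit, rose in Jurkat by 0.62 ± 0.11 (adjusted p = 0.00551) and fell in HSB-2 by 0.53 ± 0.13 (adjusted p = 0.00979). Both POLR3B calls held with wild-type controls. MAF1, a repressor of the polymerase, fell in Jurkat by 0.40 (adjusted p = 0.00337) and rose in HSB-2 by 0.24 (adjusted p = 0.011). SNAPC3, a subunit of the complex that binds the promoters of 7SK and other small RNAs, fell in Jurkat by 0.76 ± 0.19 (adjusted p = 0.0233), and was at 121 ± 1.51 CPM in scrambled, 56.0 ± 0.369 in shRNA-4057 and 84.9 ± 1.36 in shRNA-4058 cells. POLR3K fell in HSB-2 by 0.50 ± 0.08 (adjusted p = 0.000997). With wild-type controls the POLR3K call held, and that of SNAPC3 did not (-0.49, adjusted p = 0.162).

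Of 30 other structured RNAs, 25 were paired with a row. In Jurkat 9 of 15 tested were called, 1 higher and 8 lower, with a median of -0.65, and in HSB-2 4 of 18, all higher, with a median of 0.19. SNORD3A, the U3 RNA that acts in ribosomal RNA processing, fell in Jurkat by 0.98 (adjusted p = 0.00141) and rose in HSB-2 by 0.25 (adjusted p = 0.00891). SCARNA5, a guide RNA of Cajal bodies, fell in Jurkat by 0.99 (adjusted p = 0.00813) and rose in HSB-2 by 0.52 ± 0.11 (adjusted p = 0.00481). The SCARNA5 difference turned to -0.14 with wild-type controls in HSB-2. The spliceosomal RNA row RNU4-1 fell in Jurkat by 1.15 (adjusted p = 0.0035). RNU5E-1 rose there (1.67 ± 0.31, adjusted p = 0.00749), at levels of at most 0.839 CPM in a group mean. RNU6ATAC fell in Jurkat by 1.42 ± 0.37 (adjusted p = 0.0265), and RNU6-1 rose in HSB-2 by 2.24 ± 0.59 (adjusted p = 0.0158), both below 1 CPM. The calls of RNU5E-1, RNU6ATAC and RNU6-1 were lost with wild-type controls (adjusted p = 0.211, 0.627 and 0.32). Spliceosomal RNAs have many near-identical copies, so their counts are uncertain. Among the partner genes, HEXIM1, LARP7, CCNT1, MAF1, SNORD3A and RNU4-1 were chosen for naming after their values were seen. No values with wild-type controls are given for them, nor for SRP68 in HSB-2 and SCARNA5 in Jurkat. Whether those calls hold with wild-type controls is therefore not shown.

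**Figure D5:**
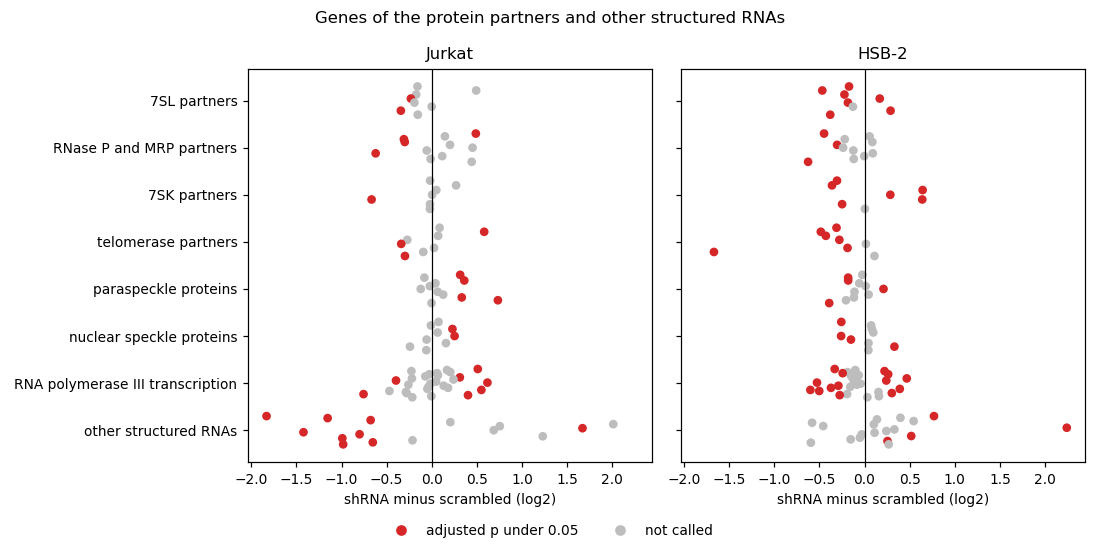
Each point is 1 partner gene or other structured RNA, placed by its log2 difference of USP7 shRNA minus scrambled cells in the pooled fit, with Jurkat on the left and HSB-2 on the right and red for an adjusted p under 0.05. Calls lie on both sides of 0 in 4 of 8 lists in Jurkat and 5 of 8 in HSB-2, and among the other structured RNAs 8 of 9 calls lie below 0 in Jurkat and 4 of 4 above 0 in HSB-2. Against wild-type cells, which are not drawn, most HSB-2 calls of the other structured RNAs were lower.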

How the data were processed

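RNA was extracted with a column kit, depleted of ribosomal RNA and made into stranded libraries. The study describes alignment to GRCh37-lite and other sequence sets by BWA within the authors' own pipeline. The processing steps listed with the samples name STAR as well as BWA, so the aligner is uncertain. Reads were counted per gene with HTSeq 0.6.1p1. The deposited table holds these counts, neither normalized nor pooled, in rows named by Ensembl identifiers. The strand setting and annotation release were not given in the sources used here. Symbols, positions and lengths were taken from GENCODE release 44 on GRCh37 and a RefSeq gene table.

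The members and lists were chosen with earlier results of these data known. Partner genes were named by the rule of up to 3 per list and line with the largest pooled difference among calls where all 4 shRNA libraries lay on 1 side of both scrambled libraries, with exceptions stated. Some items that the rule or the lists hold are not reported here.

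In R 4.3.3, edgeR 4.0.16 (filterByExpr, TMM factors from 0.882 to 1.15, quasi-likelihood F-test, Benjamini-Hochberg adjustment) fitted the pooled comparison of each line, all 16 libraries as 8 groups, and the interaction of line and shRNA. Single shRNAs, controls and lines were compared in the fit of 16 libraries. Procedures were tested on simulated data. DESeq2 1.42.0, other scalings, filters and controls were alternatives. The total counts set the precision, and counting errors cover counting alone, because PCR copies of a molecule are not marked.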

Additional observations from a re-analysis of the deposited data

Results flagged for a closer look

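The shRNA effect had opposite signs in the lines for 5 of the 6 noncoding RNAs, since all 4 shRNA libraries lay on 1 side of both scrambled libraries in Jurkat and on the other side in HSB-2. Lying on 1 side, whichever it was, held for 53.9% of all genes in Jurkat and 57.4% in HSB-2. The share of all genes with opposite sides in the lines was not computed, so the count is a description. The difference HSB-2 minus Jurkat (log2) was 2.17 for RN7SL2, 1.31 for RN7SK, 2.12 for RPPH1, 2.62 for TERC and -1.21 for MALAT1, and it was not tested because these levels chose the RNAs. Among the Jurkat shRNA libraries, RN7SK in shRNA-4058 replicate 1, at 9666 CPM, stood apart from the other 3 by 0.883 of the range of the 4. Of 12 such sets of 4 libraries 1 was flagged, and chance flags about 1 in 20.

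Of the 34 named partner genes, 26 differed between the lines in the shRNA effect by the interaction term of the edgeR fit. The edgeR adjusted p lay between 1.47e-05 and 0.0473, with 12 higher and 14 lower in HSB-2. Over all listed genes tested the term was called for 50 of 99, beside 37.7% of all genes. The named genes were picked for large shRNA effects in the same libraries, so their count is a description. The values HSB-2 minus Jurkat (log2) on the higher side were 2.62 for RN7SL3, 1.78 for RNU6ATAC, 1.53 for SCARNA5, 1.33 for HEXIM2, 0.74 for RPP25L, 0.65 for SRPRA, 0.62 for CDK9, 0.60 for SRSF5, 0.43 for WRAP53, 0.42 for SRP68, 0.38 for NOP10 and 0.36 for NONO. On the lower side, RNU5E-1 was at -2.11, TERT at -1.55, POLR3B at -1.12, RPP40 at -1.04, GAR1 at -1.04, SRP19 at -0.94, SFPQ at -0.92 and POP1 at -0.91. CCNT2 was at -0.61, SRSF1 at -0.49, RPP14 at -0.48, NAF1 at -0.48, RBM14 at -0.43 and PNN at -0.31. These effects share the scrambled libraries of each line.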

How the results depend on the processing

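Of 414 values of the 6 RNAs under other scalings, controls and sets of libraries, 407 had the sign of the value reported, and the 7 that did not were all of NEAT1 in HSB-2. Its pooled difference turned to -0.072 with raw library totals, -0.058 with totals without the 6 RNAs and -0.43 with wild-type controls, and its shRNA-4057 difference turned to -0.0089 with raw totals. The SCARNA5 difference in HSB-2 turned to -0.14 with wild-type controls. The cause was not tested. The median absolute difference of the 6 RNAs moved in the pooled Jurkat comparison from 1.20 to 0.51 with wild-type controls. Other comparisons have starting values of their own, which are not given here. For shRNA-4058 in Jurkat the median moved to 1.10 with raw totals and with totals without the 6 RNAs. Between wild-type lines it moved to 0.89 with raw totals and 0.91 with totals without the 6 RNAs. Leaving out 1 library gave 1.10 to 1.37 for shRNA-4058 in Jurkat and 0.66 to 0.92 between wild-type lines. The count of partner genes and other structured RNAs called in the pooled Jurkat comparison was 61 with the shRNAs as separate groups, which takes their difference out of the error and called 54.0% of all genes, and 9 with wild-type controls, which called 8.41%. Leaving out 1 library gave 5 to 34 partner calls in the pooled Jurkat comparison, 15 to 46 in the pooled HSB-2 comparison and 26 to 33 for HSB-2 scrambled against wild-type. With wild-type controls, 13 of 18 named Jurkat calls and 10 of 23 named HSB-2 calls were lost. The replicate numbers did not pair the libraries (correlations of deviations from -0.37 to 0.41 over 28 pairs of groups). With the replicate block the pooled partner counts were 25 in Jurkat and 40 in HSB-2, and that of the line difference was 46. DESeq2 gave 38, 48 and 49 partner calls in these comparisons.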
